A study of Rattus norvegicus with 6 samples.

Results

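The receptors of the PPAR and ERR families in the rat heart, with the partners and coregulators through which they act, were examined in left ventricle of diabetic and control rats. The set holds 10 genes chosen by name, out of 26456 gene names on the array. They are the fatty acid receptors Ppara, Ppard and Pparg, their partner Rxra, the estrogen-related receptors Esrra and Esrrg, the coactivators Ppargc1a and Ppargc1b, the corepressor Nrip1 and the mitochondrial factor Tfam. RNA of left ventricle, marked ex vivo in the sample titles, was measured on 1-colour Agilent arrays in 3 OLETF and 3 LETO rats. Each labelled replicate had 1 array. OLETF is an inbred strain that overeats, becomes obese and develops type 2 diabetes, and its rats were 27, 28 and 27 weeks old (replicates 1, 2 and 3). LETO is the lean, non-diabetic control strain, and its rats were 27, 28 and 28 weeks old. All 6 were males, and neither strain received a treatment that the labels name. Strain background and diabetes differ together between the groups, so they cannot be told apart here.

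PPARs are nuclear receptors that bind fatty acids and their derivatives, pair with RXR, and switch on genes of fatty acid uptake, storage and oxidation. ERRs work without a bound hormone and draw their activity from the PGC-1 coactivators, and in the heart they act on genes of the citric acid cycle and the respiratory chain. The heart draws most of its energy from fatty acids, and PPAR-alpha and ERR activity is known for setting its capacity to burn them. Nrip1 opposes these receptors, and Tfam, a downstream gene of the coactivators, packages mitochondrial DNA and helps start its transcription.

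Levels are log2 of spot signal minus the 75th percentile of the array's probes, so that 0 is the 75th percentile and each unit is a doubling. Differences are OLETF minus LETO on this scale. A gene was called when limma's p, adjusted by Benjamini-Hochberg over all 18816 genes tested, was below 0.05. On each array between 75.55% and 79.80% of spots were well above background and none was saturated, and the 75th percentile was 887 to 1228 intensity units. OLETF 1 and all 3 LETO arrays shared slide 1, and OLETF 2 and OLETF 3 were on slide 2, so the difference within slide 1 compares 1 OLETF array with 3 LETO arrays. That within-slide difference equals the value with slide as a block. LETO 1 stood apart from the other arrays on the second principal component, which held 23.8% of the variance, and had the lowest array weight, 0.205. All 11 cardiomyocyte markers were well above background on every array. Their summed level was 2966 to 3576 times the 75th percentile in OLETF and 3204 to 3565 in LETO, ranges that overlap. All 11 had negative differences, with a median of -0.11 against -0.0084 over all genes, and none was called. Myl2, Ryr2 and Ckm read lower on every OLETF array than on any LETO array, and the rest overlapped. Of 5 tested atrial markers all had negative differences and none was called. Myl7 among them spanned -0.72 to 3.85 in OLETF and 0.54 to 5.15 in LETO. Red blood cell markers summed to 6.67 to 7.75 in OLETF and 6.27 to 22.4 in LETO. Of 3 of those tested, 1 was called higher and 2 had negative differences. What part tissue make-up has in the differences below was not tested.

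None of the 10 genes was called, where 1.5% of all genes tested were called higher in OLETF, 1.05% lower and 2.55% in either direction. All 10 were well above background on all 6 arrays. The differences of 5 were positive and those of 5 were negative. Ppara was the exception in separation: its 3 OLETF arrays all lay above its 3 LETO arrays, a pattern found in 8.92% of all genes, with 8.43% showing the reverse. It was also the 1 member with an unadjusted p below 0.05, where 12.4% of all genes had one. The other 9 members had overlapping arrays, and 17.4% of all genes had arrays that did not overlap in either direction.

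**Figure D1:**
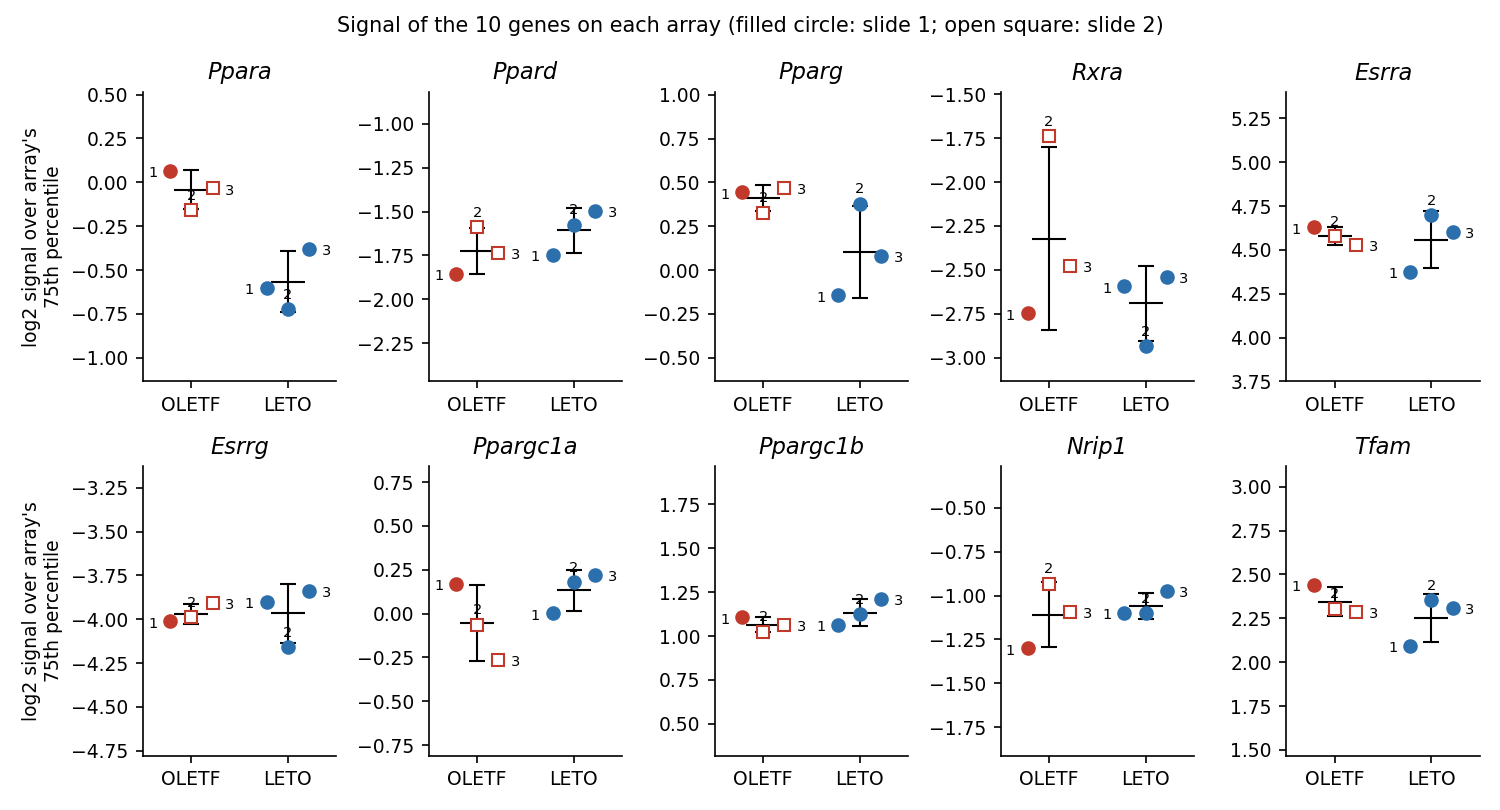
Level of each of the 10 genes on each array (log2 signal over the array's 75th percentile) in OLETF and LETO, with filled circles for slide 1, open squares for slide 2, replicate numbers beside the points, and the bar and whiskers at the mean and SD (n = 3). Every panel spans the same number of log2 units around its own values. The 3 OLETF points of Ppara, from -0.16 to 0.067, lie above the 3 LETO points, from -0.72 to -0.38, and the points of the other 9 genes overlap.

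Most of these levels rest on a single probe of 60 bases. Ppard and Nrip1 had a second tested probe, and the probe of Esrra was printed in 10 spots. Probe positions are given in the rn4 build of the files, whose gene models were not used here, so exon or UTR is not stated. The probes of Rxra (chr3:6678240-6678299, plus strand), Ppargc1a (chr14:64365667-64365726, plus strand) and Ppargc1b (chr18:57280683-57280742, minus strand) are shown because the values of these 3 genes turn on 1 sequence each, and each reads without a stop codon in 1 forward frame.
Rxra probe: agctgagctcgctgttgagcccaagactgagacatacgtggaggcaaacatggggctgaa
Ppargc1a probe: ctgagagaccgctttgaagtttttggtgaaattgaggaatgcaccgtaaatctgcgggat
Ppargc1b probe: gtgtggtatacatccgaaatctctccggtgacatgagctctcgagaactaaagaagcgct
Over the 64 pairs of probes of different members, the longest run of identical bases was 8.

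Ppara encodes PPAR-alpha, the fatty acid receptor that drives oxidation genes in the heart. Its probe (chr7:123807031-123807090, plus strand) read 0.067, -0.16 and -0.035 in OLETF 1, 2 and 3, against -0.60, -0.72 and -0.38 in LETO 1, 2 and 3. The lowest OLETF array thus stood above the highest LETO array. The difference was 0.52 ± 0.12 (SE, 95% interval 0.25 to 0.80), or 1.44-fold with an interval of 1.19 to 1.74. Its unadjusted p was 0.0029 and its limma-adjusted p was 0.0803, which placed it 676th of 18816 genes and short of the call. Ppara varied within strains about as much as a typical gene, with a pooled SD of 0.147 against a median of 0.146 over all genes.

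Under the 21 other settings tried, the difference of Ppara stayed between 0.44 and 0.63. With any 1 array left out it was 0.45 to 0.62, with adjusted p between 0.0720 and 0.278. Within slide 1 OLETF 1 stood 0.63 above the LETO arrays (adjusted p = 0.333 with slide as a block). A trended, robust variance prior took it past the threshold (adjusted p = 0.0369). So did array weights, at a difference of 0.44 (adjusted p = 0.0478), and none of the rest did. Of 5 skeletal muscle markers, Tnnc2 (-0.17, adjusted p = 0.528) and Myh4 (-0.64, adjusted p = 0.260) read lower on every OLETF array than on any LETO array. Myh4 was dim and above background on only 2 of the 3 OLETF arrays, so it was tested through LETO alone, where it was higher. The other 3 markers overlapped, and 2 of the 5 were positive. The summed level of the 5 was 74.3 to 83.9 in OLETF and 88.3 to 92.9 in LETO. That sum rests almost wholly on Tnnc2, so it reads 1 gene rather than the markers as a set. The part of these markers in the Ppara difference was not tested. In whole tissue, fewer cells of a type and less RNA per cell cannot be told apart.

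**Figure D2:**
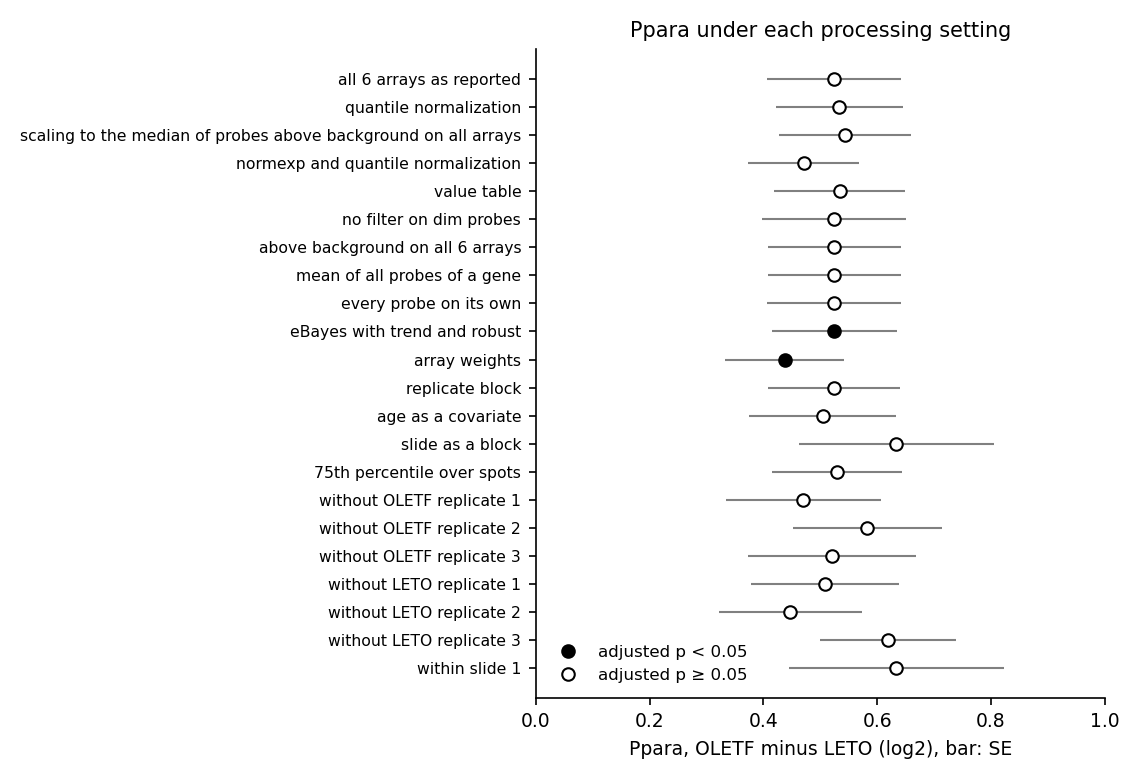
Difference of Ppara, OLETF minus LETO on the log2 scale, for all 6 arrays and under each other setting, with bars for the SE. Every point lies between 0.44 and 0.63, and the filled points, for an adjusted p below 0.05, are the trended, robust prior and the array weights.

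Ppard encodes PPAR-delta, a fatty acid receptor that shares many targets with PPAR-alpha. The brighter probe (chr20:6542932-6542991, plus strand) read -1.85, -1.59 and -1.74 in OLETF 1, 2 and 3, against -1.75, -1.58 and -1.50 in LETO. Its difference was -0.12 ± 0.11 (95% interval -0.38 to 0.14, adjusted p = 0.824), with only OLETF 1 below the lowest LETO array. A second probe, 493 bases away, read -2.22, -2.29 and -2.30 in OLETF and -1.87, -2.10 and -2.24 in LETO, a difference of -0.20 ± 0.11. On that probe OLETF 2 and OLETF 3 lay below every LETO array, and OLETF 1 lay within the LETO range. Ppard and Ppara had differences of opposite sign, with 95% intervals that did not overlap. Neither gene was called, the interval of Ppard spanned both signs, and the contrast between the genes was not tested.

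Pparg encodes PPAR-gamma, the receptor that drives fat cell formation and is the target of the glitazone drugs. It read 0.44, 0.33 and 0.47 in OLETF 1, 2 and 3, against -0.14, 0.38 and 0.081 in LETO 1, 2 and 3 (chr4:151617128-151617187, plus strand). OLETF 1 and OLETF 3 were above every LETO array, and OLETF 2 was below LETO 2. The difference was 0.31 ± 0.14 (95% interval -0.024 to 0.64, adjusted p = 0.449). It was 0.18 to 0.44 with 1 array left out and 0.34 within slide 1. The spread lay in LETO, with an SD of 0.262 there and 0.0749 in OLETF (n = 3 each).

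Fat cells are the usual site of high PPAR-gamma, so adipocyte markers were read beside it. Their summed level was 1.87 to 2.39 in OLETF and 1.94 to 2.79 in LETO, so the ranges overlapped. That sum rests almost wholly on Cfd (-0.0032, adjusted p = 0.999), so it reads 1 gene rather than the markers as a set. Only Cfd and Retn of these markers were tested, and neither was called. Cidec was above background on 0 of the 6 arrays, and Adipoq and Lep were each above it on 1. Of the PPAR-gamma target genes of adipocytes, 5 of 12 were tested, with a median of -0.0032, and none was called. Retn (-0.57, adjusted p = 0.805) is 1 of the 5, and it was above background on 2 OLETF and 3 LETO arrays. Aqp7, the glycerol channel, differed by 0.22 (adjusted p = 0.502), and Cidea, a lipid droplet protein, by 0.26 (adjusted p = 0.562).

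Rxra encodes RXR-alpha, the partner that PPARs need to bind DNA. The probe shown above read -2.75, -1.74 and -2.48 in OLETF 1, 2 and 3, against -2.59, -2.93 and -2.54 in LETO 1, 2 and 3. OLETF 2 was the highest of the 6, and OLETF 1 was lower than 2 of the 3 LETO arrays. The difference of 0.37 ± 0.26 had an interval of -0.24 to 0.98 (adjusted p = 0.710). It was 0.076 without OLETF 2, and within slide 1 it was -0.059. Rxra was the most variable member, with a pooled SD of 0.400, at the 94.4th percentile of all genes. The related partner genes Rxrb and Rxrg had differences of 0.027 (adjusted p = 0.974) and 0.36 (adjusted p = 0.586).

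Esrra encodes ERR-alpha, which acts with PGC-1alpha on genes of oxidative phosphorylation. It read 4.63, 4.58 and 4.53 in OLETF 1, 2 and 3, against 4.38, 4.70 and 4.602 in LETO 1, 2 and 3 (chr1:209587731-209587790, minus strand). The OLETF arrays all lay inside the LETO range. The difference was 0.020 ± 0.106 (adjusted p = 0.980). Its interval, -0.23 to 0.27, holds changes of up to 1.21-fold upward and down to 0.852-fold. The 10 spots of this probe agreed closely on each array, with an SD of single spots between 0.033 and 0.049. The SD between arrays, taken on means over the 10 spots and so not a like measure, was 0.0497 in OLETF and 0.165 in LETO.

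Esrrg encodes ERR-gamma, a heart-enriched receptor with targets in common with ERR-alpha. Its probe was dim but above background, at -4.01, -3.99 and -3.91 in OLETF 1, 2 and 3 and -3.90, -4.16 and -3.84 in LETO 1, 2 and 3 (chr13:104404626-104404685, plus strand). All OLETF values fell between the lowest and the highest LETO value. The difference was -0.0040 ± 0.108 (95% interval -0.26 to 0.25, adjusted p = 0.996), and its sign turned under 5 of the scaling and percentile settings and with some arrays left out. Esrrb, the third receptor of the family, had a difference of 0.020 (adjusted p = 0.985).

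Ppargc1a encodes PGC-1alpha, the coactivator that responds to energy demand and acts on both PPARs and ERRs. It read 0.17, -0.065 and -0.26 in OLETF 1, 2 and 3, against 0.0011, 0.18 and 0.22 in LETO 1, 2 and 3. OLETF 2 and OLETF 3 were the lowest of the 6, and OLETF 1 was inside the LETO range. The difference was -0.19 ± 0.13 (95% interval -0.50 to 0.12, adjusted p = 0.710). The 2 low arrays were both on slide 2, and within slide 1 the difference was 0.036, so strain and slide cannot be told apart for this value.

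Ppargc1b encodes PGC-1beta, a close relative of PGC-1alpha that also coactivates ERRs. It read 1.11, 1.02 and 1.06 in OLETF 1, 2 and 3, against 1.06, 1.12 and 1.21 in LETO 1, 2 and 3. OLETF 2 and OLETF 3 lay below the lowest LETO array, OLETF 3 only in the fourth decimal. The difference was -0.069 ± 0.084 (adjusted p = 0.895). This was the tightest interval among the 10, -0.27 to 0.13, since the pooled SD of 0.0602 was at the 6.83rd percentile of all genes. Pprc1, the third coactivator of that family, read lower on all OLETF arrays than on any LETO array, with a difference of -0.17 ± 0.080 (adjusted p = 0.466).

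Nrip1 encodes a corepressor that docks on active nuclear receptors and holds down genes of oxidative metabolism. Its brighter probe (chr11:15073726-15073785, minus strand) read -1.30, -0.93 and -1.10 in OLETF 1, 2 and 3, against -1.10, -1.10 and -0.97 in LETO. OLETF held both the lowest and the highest value, and the difference was -0.052 ± 0.115 (adjusted p = 0.951). The second probe, 2642 bases away, read -1.32, -1.04 and -1.26 in OLETF, against -1.04, -0.87 and -0.999 in LETO. On it all OLETF arrays lay below all LETO arrays, OLETF 2 and LETO 1 apart only in the fourth decimal, with a difference of -0.24 ± 0.11 (adjusted p = 0.433 with every probe tested on its own).

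Tfam encodes the factor that packages mitochondrial DNA and starts its transcription. It read 2.44, 2.30 and 2.29 in OLETF 1, 2 and 3, against 2.09, 2.35 and 2.31 in LETO 1, 2 and 3 (chr20:18112519-18112578, plus strand). The OLETF 2 and OLETF 3 arrays lay inside the LETO range, OLETF 1 above it. The difference was 0.092 ± 0.103 (95% interval -0.15 to 0.34, adjusted p = 0.876), and 0.014 to 0.14 with 1 array left out.

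**Figure D3:**
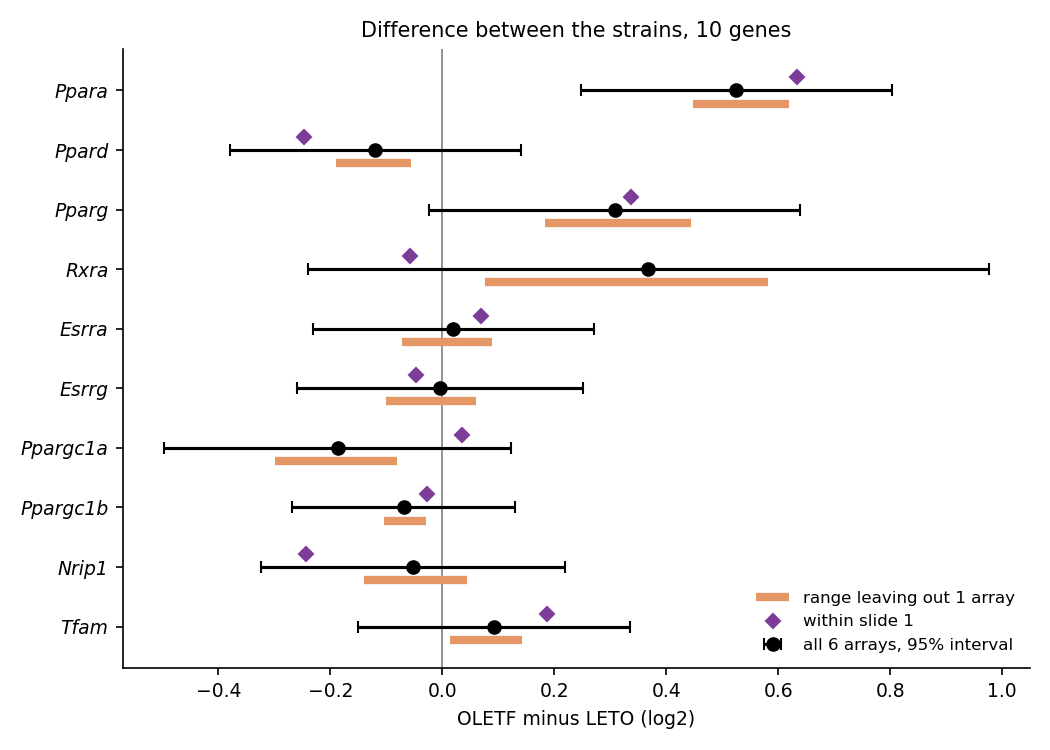
Difference of each of the 10 genes, OLETF minus LETO on the log2 scale. Black points and whiskers give all 6 arrays with the 95% interval, orange bars the range with 1 array left out, and diamonds the value within slide 1. The interval of Ppara, 0.25 to 0.80, is the one that leaves out 0.

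Promoters were read to show what lies before the start of these genes. RefSeq's table for GRCr8 held 13 start sites for 9 of the 10 genes, in windows of 300 bases from 250 before to 50 after the start, and Ppard had no entry. On both strands 8 motifs were searched in these and in all 33469 windows of the table. The PPAR-RXR element, the half-site AGGTCA repeated after 1 base of any kind, was in 0.05% of all windows and in none of the members'. The ERR element TCAAGGTCA, which also contains that half-site, was in 0.43% and in none of the members', and AGGTCA alone was in 16.18% and in Esrrg. The Sp1 motif GGGCGG was in 33.06% of all windows and in 9 of the 13 windows of the members, which belong to 8 genes. The E-box CACGTG was in 6.42% and in none of the members'.

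Motifs of the factors known to control mitochondrial genes were each in 1 member. The NRF1 motif, GCGCA and GCGC with 1 base of any kind between, in 4.25% of all windows, lay 100 bases before the start of Ppara. The cyclic AMP element TGACGTCA, in 1.83%, lay 181 bases before the start of Ppargc1a, and the GABP or ETS motif CCGGAAG, in 8.75%, lay 56 bases before the start of Tfam. Shown are the 250 bases before each start, on the plus strand of GRCr8 at chr7:118712357-118712606, chr14:63634058-63634307 and chr20:17355123-17355372, with the motif in capitals, because the factors that bind these motifs were themselves on the arrays.
Ppara promoter: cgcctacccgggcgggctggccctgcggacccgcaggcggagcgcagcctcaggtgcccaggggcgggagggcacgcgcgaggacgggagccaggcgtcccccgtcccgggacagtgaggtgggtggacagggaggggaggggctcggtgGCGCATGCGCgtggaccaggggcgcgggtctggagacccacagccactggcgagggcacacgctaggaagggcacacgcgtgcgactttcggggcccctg
Ppargc1a promoter: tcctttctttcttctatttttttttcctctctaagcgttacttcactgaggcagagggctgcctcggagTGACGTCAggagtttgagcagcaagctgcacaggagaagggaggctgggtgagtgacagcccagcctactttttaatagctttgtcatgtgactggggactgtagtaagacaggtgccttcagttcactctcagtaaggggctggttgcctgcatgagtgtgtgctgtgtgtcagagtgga
Tfam promoter: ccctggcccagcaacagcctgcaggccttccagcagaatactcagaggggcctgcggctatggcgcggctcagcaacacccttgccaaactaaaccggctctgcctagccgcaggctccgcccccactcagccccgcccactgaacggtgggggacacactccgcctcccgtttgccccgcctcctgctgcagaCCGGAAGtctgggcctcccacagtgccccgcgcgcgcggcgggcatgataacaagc
Of those factors, Nrf1 read lower on every OLETF array than on any LETO array, at -2.42, -2.40 and -2.31 in OLETF against -2.25, -2.25 and -2.17 in LETO. Its difference was -0.15 ± 0.083 (adjusted p = 0.570), and its second probe gave -0.16. Gabpa differed by 0.048 (adjusted p = 0.951), Gabpb1 by 0.087 (adjusted p = 0.814) and Creb1, the cyclic AMP factor, by -0.16 (adjusted p = 0.729), none of them called. These last 3 were named for their motifs after their values were seen.

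Around the receptors, 148 genes of 10 pathway lists were tested, and 0 were called higher and 2 lower. Of all genes tested, 1.5% were called higher and 1.05% lower. All OLETF arrays lay above all LETO arrays for 14 of them and below for 14, both called genes included, beside 8.92% and 8.43% of all genes. The median difference of all genes was -0.0084.

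The PPAR-alpha and PPAR-delta target genes had a median of 0.12, and 21 of 30 were positive, where 47.6% of all genes were. That median was 0.058 without LETO 1 and 0.20 without LETO 2. On single arrays, the median deviation of these genes from their own means was 0.048, 0.021 and 0.011 in OLETF 1, 2 and 3. It was -0.17, 0.10 and -0.033 in LETO 1, 2 and 3, so the OLETF arrays lay inside the LETO range. Of the 30 genes, 0 were called higher and 1 was called lower. That gene was Vnn1, a pantetheinase that PPAR-alpha induces in mouse liver, which fell to 1.62, 1.03 and 1.17 in OLETF, against 2.31, 2.58 and 2.32 in LETO. Its difference was -1.13 ± 0.17 (adjusted p = 0.0170), opposite in sign to that of Ppara, which was not called. Whether PPAR-alpha acts on Vnn1 in this tissue was not tested. Within slide 1 the difference of Vnn1 was -0.79, and its call was lost when slide entered as a block (adjusted p = 0.177). It was also lost without OLETF 2, OLETF 3 or LETO 2 (adjusted p of 0.0718, 0.0887 and 0.0596) and with no filter on dim probes (adjusted p = 0.0703).

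Pdk4, Ucp3 and Cpt1b, PPAR-alpha targets of the heart that are given whatever their values, were not called. Pdk4, the kinase that holds back glucose oxidation, read -1.28, -0.88 and -0.33 in OLETF, against -1.67, -1.09 and -2.40 in LETO, which overlap (0.89 ± 0.36, adjusted p = 0.373). Ucp3, a mitochondrial carrier, ranged from -0.15 to 1.01 in OLETF and from -0.91 to 0.56 in LETO (0.52 ± 0.43, adjusted p = 0.785). Cpt1b, the gatekeeper of fatty acid entry into mitochondria, read 6.17, 6.07 and 6.09 in OLETF, inside the LETO values of 5.97, 6.25 and 6.17. Its difference was -0.015 ± 0.10, with a second probe at -0.011.

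The ERR target genes of energy metabolism had a median of -0.031, with 10 of 29 positive, 0 called higher and 1 called lower. Without LETO 1 the median was -0.12. Uqcrfs1, the iron-sulfur subunit of respiratory complex III, fell to 5.52, 5.45 and 5.45 in OLETF, against 6.11, 6.13 and 6.14 in LETO. The strains were far apart relative to their spread, with a difference of -0.66 ± 0.078 (adjusted p = 0.00681). The value within slide 1 was -0.61. Its call was lost there (adjusted p = 0.390), with slide as a block (adjusted p = 0.156) and without OLETF 3 (adjusted p = 0.0546). The 28 other tested genes of the list were not called, and neither were Esrra, Esrrg or the coactivators.

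**Figure D4:**
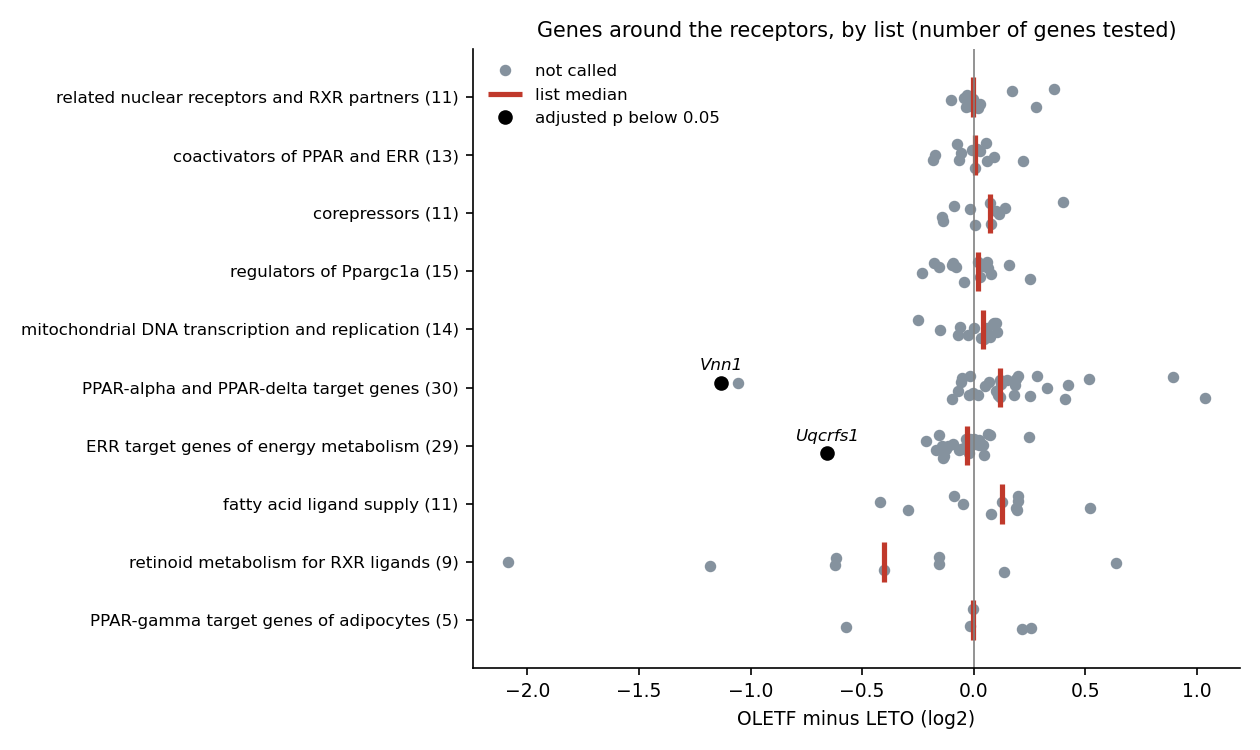
Difference of each tested gene, OLETF minus LETO on the log2 scale, in the 10 lists around the receptors, with the number of genes tested in brackets and the list's median as a red bar. Black points are Vnn1 at -1.13 and Uqcrfs1 at -0.66, the genes with an adjusted p below 0.05, and grey points were not called.

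Genes of fatty acid ligand supply had a median of 0.13 over 11 tested, or 0.059 without LETO 1, and none was called. Mgll, the lipase that completes triglyceride breakdown, read 1.47, 1.53 and 1.76 in OLETF, against 0.85, 1.15 and 1.19 in LETO. All OLETF arrays were above all LETO arrays, with a difference of 0.52 ± 0.13 (adjusted p = 0.105). Dgat1, which makes triglyceride, differed the other way by -0.29 ± 0.097 (adjusted p = 0.247). Genes of retinoid metabolism for RXR ligands had a median of -0.40 over 9 tested of 12, and none was called. Their median was -0.25 without LETO 1 and -0.60 without LETO 2. It includes Rbp4 (-2.09, adjusted p = 0.276), above background on 2 OLETF and 3 LETO arrays and so tested through LETO alone, where it was higher. Cyp26b1, which degrades retinoic acid, read -2.47, -1.56 and -2.20 in OLETF, below -1.15, -1.07 and -0.46 in LETO (-1.18 ± 0.27, adjusted p = 0.0853). Aldh1a2, which makes retinoic acid, differed by -0.62 ± 0.16 (adjusted p = 0.112), also with all OLETF arrays below all LETO arrays, and passed the threshold without OLETF 1 (-0.78, adjusted p = 0.0483).

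Of 13 further coactivators tested none was called, with a median of 0.0042, and Ncoa3, a steroid receptor coactivator, had 0.22 ± 0.10 (adjusted p = 0.467). Of 11 corepressors none was called, with a median of 0.074. Nr0b2, a receptor without a DNA-binding domain that blocks other nuclear receptors, read 2.29, 2.45 and 2.37 in OLETF, above 1.74, 2.08 and 2.09 in LETO. Its difference was 0.40 ± 0.12 (adjusted p = 0.190). Gps2, part of the NCoR complex, had -0.14 ± 0.079 (adjusted p = 0.596).

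Regulators of Ppargc1a gave a median of 0.018 over 15 tested, with none called. The kinase gene Camk4 had -0.23 ± 0.099 (adjusted p = 0.414) and the muscle transcription factor gene Mef2a 0.25 ± 0.11 (adjusted p = 0.437). Genes of mitochondrial DNA transcription and replication, which work with Tfam, gave a median of 0.040 over 14 tested, also with none called. Tfb2m, the mitochondrial transcription factor that works with Tfam and the mitochondrial RNA polymerase, read lower on every OLETF array than on any LETO array (-0.25 ± 0.097, adjusted p = 0.341). Related nuclear receptors gave a median of -0.0031 over 11 tested, none called, and Nr1h3, the oxysterol receptor LXR-alpha, had 0.17 ± 0.084 (adjusted p = 0.495).

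Among 145 pathway genes above background on all 6 arrays, the levels most like those of Ppara over the 6 arrays were of 3 genes. These were Gabpb1 (Pearson r = 0.867, Spearman rho = 0.886), the fatty acid transporter Slc27a1 (0.853 and 0.886) and Mgll (0.829 and 0.771). The arrays share strain, slide and scaling, so these are descriptions over 6 points. Of the 3, Mgll had the difference nearest to that of Ppara, 0.52 for both, and Slc27a1 had 0.19 (adjusted p = 0.514).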

How the data were processed

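Left ventricle RNA of 3 OLETF and 3 LETO rats was hybridised to Agilent Rat GE 4x44K v3 arrays in 1 colour. Signals in the scanner output are linear intensity with background subtracted and detrended, per the file headers, which name Feature Extraction 10.7.3.1 and the rn4 build. Version 9.1 is given by the submitters' processing notes. The deposited value table holds the same intensity divided by a constant per array, with no logarithm and no centring, and its column medians were 0.154, 0.157 and 0.159 in OLETF and 0.163, 0.154 and 0.158 in LETO. Groups, ages and replicate numbers follow the labels, although the source name of LETO replicate 2 reads replicate 1. Where nothing says that RNA came from separate preparations, p-values measure the spread between these samples.

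Control spots and outlier spots were left out, signals were log2 transformed, spots of a probe were averaged, and each array's 75th percentile over probes was subtracted. A probe was tested if well above background on all 3 arrays of a strain (21484 of 30367), and the brightest tested probe stood for its gene (18816). Members are the 10 gene names above. limma 3.58.1 in R 4.3.3 gave differences, SEs, 95% intervals and Benjamini-Hochberg adjusted p and was tested on simulated data. No test was adjusted over the members, and lists are described without one. Beyond the members, the text names up to 4 called genes of each list, or the 2 with the smallest p where none was called, and Pdk4, Cpt1b, Ucp3, Nrf1, Pprc1 and Rxrb. Esrrb, Gabpa, Gabpb1, Creb1, Rbp4, the likeness genes and the cell type markers are extra. A further gene under this rule is not reported here. The members and lists were chosen with earlier results of these data known. Older names were matched through the RefSeq table, and 202 of 210 list symbols were found.

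Other settings were median scaling over probes detected everywhere, quantile normalization, normexp with an offset of 50 plus quantile normalization, the value table, other filters and probe rules, a trended, robust prior, array weights, a replicate block, age, slide, and each array left out. A percentile over spots was chosen after seeing the data. Deviations of the same replicate number correlated at -0.0882, -0.137 and -0.00795, so no shared effect was seen, and the main fit used no pairing. Such values cannot show whether the rats were paired by design. The number of arrays limits the precision. Tables and figures were made with Python 3.11.15, pandas 2.3.3, matplotlib 3.10.9 and the data.table package, version 1.17.8.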

Additional observations from a re-analysis of the deposited data

How the results depend on the processing

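Of the 10 genes none was called lower in OLETF under any setting, and 1, Ppara, was called higher in 2 settings, the trended, robust prior and the array weights. The counts of genes higher in OLETF, 283, and genes lower in OLETF, 197, became 149 and 91 with no filter on dim probes, 875 and 825 with array weights, 52 and 53 with slide as a block, and 7 and 18 within slide 1. With 1 array left out, the counts were 126 to 375 higher and 87 to 239 lower. The replicate block gave 166 genes higher in OLETF, and under it the calls of Vnn1 (adjusted p = 0.0553) and Uqcrfs1 (adjusted p = 0.0539) were lost. Calls gained among genes reported as not called were Mgll under the trended, robust prior (adjusted p = 0.0493) and, with array weights, Mgll (0.49, adjusted p = 0.0267), Cyp26b1 (-1.50, adjusted p = 0.00999) and Aldh1a2 (-0.74, adjusted p = 0.0234).

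Signs turned for the following genes. With slide as a block and within slide 1, Rxra was -0.059, Ppargc1a 0.036, Cpt1b 0.042 and Rxrb -0.062. Esrra was -0.053 with array weights. Esrrg was 0.020 with quantile normalization, 0.015 with median scaling, 0.041 with normexp, 0.0059 with the value table and 0.00021 with a percentile over spots. Cpt1b was 0.022 with quantile normalization, 0.0034 with median scaling, 0.025 with normexp and 0.015 with age as a covariate, which moved Nrip1 to 0.0029. With 1 array left out, Esrra ranged from -0.071 to 0.089, Esrrg from -0.10 to 0.060, Nrip1 from -0.14 to 0.044, Cpt1b from -0.094 to 0.044, and Rxrb from -0.036 to 0.098. The cause was not tested in any of these. The within-slide values rest on 1 OLETF array, which is assumed to vary like the LETO arrays. Of 25 shifts of a list's median beyond its spread between arrays, the retinoid list had -0.25 with normexp, -0.25 without LETO 1 and -0.60 without LETO 2. The medians of coactivators, corepressors, regulators of Ppargc1a, genes of mitochondrial DNA, related nuclear receptors and PPAR-gamma targets, all near 0 as reported, changed sign under some settings.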
